A study of Mus musculus with 2 samples.

Results

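The genes described here are 32 members of the route that carries glucose carbon to lactate or into the mitochondrion. They comprise the glucose and lactate transporters, the enzymes from hexokinase to lactate dehydrogenase, the enzymes that set fructose-2,6-bisphosphate, the mitochondrial pyruvate carrier, and pyruvate dehydrogenase with its kinases. They were taken by gene symbol from a list of the pathway that was drawn up with earlier results of these data known. All 32 were found among the 32285 features of the deposited count matrices, and 31 of them held at least 50 UMIs over both libraries. A UMI (unique molecular identifier) marks 1 captured transcript. The exception, Pdk4, held 5 and 14 UMIs in the wild-type and Usb1-null libraries.

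The study compared whole mouse embryos at embryonic day 9.5, either wild-type (Usb1+/+) or carrying a germline Usb1 knockout (Usb1-/-, here Usb1-null) in which exons 1 and 2 are deleted in every cell. Usb1 encodes the nuclease that shortens the oligo(U) tail of U6 small nuclear RNA. Dissociated cells were barcoded in droplets and read near the 3′ end of each transcript, with 1 library per genotype and an unstated number of pooled embryos. After filtering, the wild-type library held 15161 cells with 21732106 UMIs and the Usb1-null library 13018 cells with 33383886 UMIs.

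In glycolysis, glucose is taken up by carriers, trapped as glucose 6-phosphate by hexokinase, committed by phosphofructokinase and cleaved into trioses, which are oxidised to pyruvate with a net gain of ATP. Pyruvate is then either reduced to lactate and exported or taken into mitochondria, where pyruvate dehydrogenase converts it to acetyl-CoA unless its kinases hold that enzyme inactive. Most steps can be served by more than 1 isozyme, several of these genes are known targets of hypoxia-inducible factor (HIF), and embryos at this stage are known for a high rate of lactate production.

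With 1 library per genotype no test of a difference was possible, and every comparison below is between these 2 libraries. Levels are CPM, a gene's UMIs divided by all UMIs of the library or cluster and multiplied by 1e6. Levels were not divided by gene length, as the assay is designed to count transcript ends. Whether intronic reads were counted was not given, and the part of gene length in the levels was not tested. Bracketed ranges are 95% intervals for counting error only, and ratios are Usb1-null over wild-type, so that a value above 1 is a higher level in the Usb1-null library. The libraries also differed in ways that move together with these values. A total of 61 barcodes, 0.402% and 0.468% of those in the wild-type and Usb1-null matrices, occurred in both. Cells held a median of 1243 UMIs in the wild-type and 2299.5 in the Usb1-null library. Mitochondrial genes took 0.435% and 0.191% of UMIs, and ribosomal protein genes 2.68% and 1.91%, in the same order. Among genes over 100 CPM the log2 ratio had a median of -0.45 for the 131 genes under 5 kb long and of 0.07 for the 701 genes of 50 to 100 kb. Xist was at 2451 CPM in the wild-type and 0.779 CPM in the Usb1-null library, and Y-linked genes summed to 3251 CPM and 1667 CPM. The sex of the embryos and their genotype cannot be told apart. Fewer cells of a type and less RNA per cell cannot be told apart in the whole-library values.

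Members that were clearly higher in the Usb1-null library were Slc2a3 at glucose uptake, Hk2 at hexokinase, Pfkp at phosphofructokinase and Pfkfb3 at its activator. Pdk1, a kinase of pyruvate dehydrogenase, was higher at the 1.5-fold mark, and Slc16a1, in lactate transport, was higher but short of it. Gapdh was the member with the lowest ratio. Among the 31 members with at least 50 UMIs, 6 were 1.5-fold or more above their wild-type level (Slc2a3, Hk2, Pfkp, Pfkfb3, Eno2 and Pdk1), against 9.2% of all 16752 genes with at least 50 UMIs. A single member, Gapdh, was 1.5-fold or more below, against 5.9% of all genes. Low genes pass such a fold by counting error more easily. Of the 2712 genes with a mean of at least 100 CPM, 0.811% were past the fold upward and 2.77% downward. Among the members past the fold, Slc2a3, Hk2, Pdk1 and Gapdh reached that level. Pfkp, Pfkfb3 and Eno2 lay below it, so these 2 shares are no background for them. Of all 32 members, 18 were higher and 14 lower in the Usb1-null library, near the 49.8% of all genes that were higher, and the median log2 ratio, with 1 CPM added to each level, was 0.06 against -0.0015 for all genes. With each cell given equal weight these counts were 5 and 2 in place of 6 and 1. Slc2a1, Hk1, Pfkl, Pfkm, Pfkfb4, Aldoa, Tpi1 and Pgam1, all slightly lower here, changed side when only deeper cells or equal depths were used, so no direction is read from them.

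**Figure D1:**
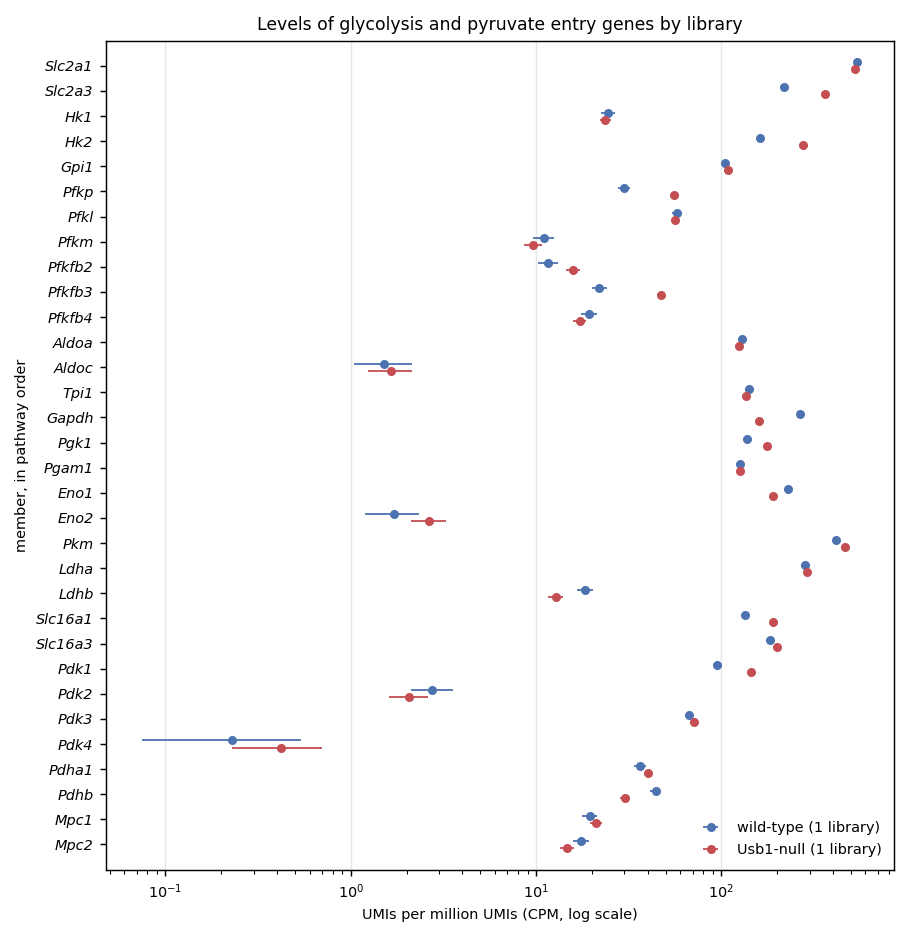
Level of each of the 32 members in CPM (log axis) in the wild-type (blue) and Usb1-null (red) libraries, 1 library each, with 95% intervals for counting error. Slc2a1 and Pkm lie highest, Pdk4 lies below 1 CPM in both libraries, and the red points of Slc2a3, Hk2, Pfkp, Pfkfb3 and Pdk1 stand clear to the right of the blue ones while that of Gapdh stands to the left.

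The promoters of Hk2, Pfkp, Pfkfb3 and Pdk1, members past 1.5-fold upward, are shown beside those of Slc16a1 and Pgk1, which were higher by less, and of Gapdh, which was lower. Promoter windows of the 250 bases before a transcription start (RefSeq, GRCm38.p6) were given for 31 members, and there was none for Slc2a3. Each window was searched on both strands for ACGTG, the core letters of the hypoxia response element, with overlapping matches counted once. Of the 31 members, 15 (48.4%) had it in at least 1 window, and so had 18.5% of the 27025 genes given. The windows are printed 5′ to 3′ in the direction of the gene, with the matched letters, on either strand, in capitals.
Hk2 chr6:82774455-82774704 (-): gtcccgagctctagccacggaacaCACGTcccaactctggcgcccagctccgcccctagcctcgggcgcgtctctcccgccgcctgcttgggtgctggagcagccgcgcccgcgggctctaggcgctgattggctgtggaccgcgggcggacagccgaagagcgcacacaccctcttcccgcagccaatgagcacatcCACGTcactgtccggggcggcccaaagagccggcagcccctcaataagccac
Pfkfb3 chr2:11502091-11502340 (-): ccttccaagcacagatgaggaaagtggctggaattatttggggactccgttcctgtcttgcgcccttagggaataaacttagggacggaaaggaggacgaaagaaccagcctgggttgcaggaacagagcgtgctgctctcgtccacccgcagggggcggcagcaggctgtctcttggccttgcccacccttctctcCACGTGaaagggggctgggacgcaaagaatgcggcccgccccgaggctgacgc
Pfkfb3 chr2:11553930-11554179 (-): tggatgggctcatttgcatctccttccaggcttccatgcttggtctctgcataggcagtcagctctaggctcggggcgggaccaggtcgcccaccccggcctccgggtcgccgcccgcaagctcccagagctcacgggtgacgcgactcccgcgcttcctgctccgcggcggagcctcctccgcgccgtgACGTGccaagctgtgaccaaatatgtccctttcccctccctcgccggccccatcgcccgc
Slc16a1 chr3:104638414-104638663 (+): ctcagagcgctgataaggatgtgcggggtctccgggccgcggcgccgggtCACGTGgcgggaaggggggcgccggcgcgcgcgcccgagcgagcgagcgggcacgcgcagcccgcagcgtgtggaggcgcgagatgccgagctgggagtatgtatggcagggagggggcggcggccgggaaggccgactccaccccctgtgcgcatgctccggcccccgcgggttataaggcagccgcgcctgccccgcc
Pgk1 chrX:106186850-106187099 (+): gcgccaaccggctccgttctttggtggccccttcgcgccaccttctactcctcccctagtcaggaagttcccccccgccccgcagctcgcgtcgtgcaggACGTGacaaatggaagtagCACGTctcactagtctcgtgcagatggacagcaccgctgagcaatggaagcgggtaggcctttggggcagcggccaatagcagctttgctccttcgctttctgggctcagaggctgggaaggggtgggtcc
Pfkp chr13:6648772-6649021 (-): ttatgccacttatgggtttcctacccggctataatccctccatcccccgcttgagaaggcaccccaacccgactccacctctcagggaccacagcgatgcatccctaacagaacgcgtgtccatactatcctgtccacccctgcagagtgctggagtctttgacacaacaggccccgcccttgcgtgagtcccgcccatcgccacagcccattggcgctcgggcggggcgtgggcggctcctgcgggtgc
Pdk1 chr2:71872974-71873223 (+): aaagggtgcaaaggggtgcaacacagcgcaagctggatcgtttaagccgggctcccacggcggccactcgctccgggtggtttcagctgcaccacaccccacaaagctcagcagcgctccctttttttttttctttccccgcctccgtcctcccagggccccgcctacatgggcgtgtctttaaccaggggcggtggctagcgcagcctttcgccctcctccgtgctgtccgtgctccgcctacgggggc
Gapdh chr6:125165774-125166023 (-): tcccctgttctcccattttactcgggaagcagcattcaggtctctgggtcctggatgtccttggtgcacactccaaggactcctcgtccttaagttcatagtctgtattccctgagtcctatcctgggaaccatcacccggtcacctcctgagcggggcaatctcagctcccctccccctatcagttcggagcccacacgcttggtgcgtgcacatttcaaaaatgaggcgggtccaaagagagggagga

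Hk2 held matches that began 226 and 52 bases before the start, and Pgk1 matches at 150 and 131 bases. Each of the 2 Pfkfb3 starts had a match, at 53 and 60 bases, and in the first of these and in Slc16a1 the letters of both strands overlap as CACGTG. Pfkp, Pdk1 and Gapdh had none in these windows, nor had Eno2, whose window is not printed. The letters were also in windows of Pfkfb2, Pkm and Slc16a3, whose intervals lay above 1, and of Pdhb, whose interval lay below 1. Windows of Aldoa, Pgam1, Pfkm, Ldha, Pdk2 and Pdk3, whose intervals included 1, held them too, as did that of Slc2a1, at 0.969. The letters were thus not confined to members that were higher. A match is a description of the sequence and not a binding site.

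Glucose entry is served by Slc2a1, which encodes the widespread carrier GLUT1, and Slc2a3, which encodes the high-affinity carrier GLUT3. Slc2a3 (chr6:122727809-122801640 in GRCm38) was at 219 CPM (212 to 225) in the wild-type and 365 CPM (358 to 371) in the Usb1-null library, a ratio of 1.67 (1.61 to 1.73). Slc2a1, the most abundant member, was at 541 CPM (531 to 551) and 524 CPM (516 to 532), a ratio of 0.969 (0.947 to 0.992). The difference between the libraries in glucose carriers was therefore carried by Slc2a3, and the summed level of both carriers had a ratio of 1.17 (1.15 to 1.19).

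Hexokinase traps glucose in the cell. Hk2 (chr6:82725025-82774454), the inducible isozyme, was at 162 CPM (157 to 167) in the wild-type and 278 CPM (272 to 283) in the Usb1-null library, a ratio of 1.72 (1.65 to 1.78). Hk1, the constitutive isozyme that red cells depend on, was near 24.5 CPM in the wild-type library, with a ratio of 0.968 (0.866 to 1.08). Gpi1, which turns glucose 6-phosphate into fructose 6-phosphate, had a ratio of 1.04 (0.987 to 1.10). Hk2 also held the letters ACGTG at 2 places in its window. Within clusters Hk1 was above 1 in 10 of the 14 with enough UMIs, with a median ratio of 1.248, and its log2 ratio went from -0.05 to 0.17 when the erythroid and mature liver-like clusters were left out. The interval of the isomerase included 1.

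Phosphofructokinase is the committed step, and its most potent activator, fructose-2,6-bisphosphate, is made and broken down by the bifunctional PFKFB enzymes. Pfkp (chr13:6579768-6648777), the platelet-type subunit, was at 29.8 CPM (27.6 to 32.2) in the wild-type and 55.7 CPM (53.2 to 58.3) in the Usb1-null library, a ratio of 1.87 (1.71 to 2.05). The liver-type subunit Pfkl had a ratio of 0.976 (0.908 to 1.05) and the muscle-type subunit Pfkm one of 0.88 (0.742 to 1.04). Both of these intervals included 1, so within the enzyme the difference lay in Pfkp.

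Pfkfb3 (chr2:11471433-11554077), whose product has by far the highest kinase over phosphatase activity of the family, showed the largest ratio of the members with at least 50 UMIs. It was at 22 CPM (20.1 to 24.1) in the wild-type and 47.0 CPM (44.7 to 49.4) in the Usb1-null library, a ratio of 2.14 (1.93 to 2.37), above 98.7% of all genes with at least 50 UMIs. Both of its promoter windows held the ACGTG letters. Pfkfb2, the heart-type enzyme, had a ratio of 1.36 (1.17 to 1.59). Pfkfb4 had a whole-library ratio of 0.892 (0.785 to 1.01), a value that moved with the number of erythroid cells counted. The family's summed level had a ratio of 1.51 (1.41 to 1.62).

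The enzymes between aldolase and pyruvate kinase are the abundant body of the pathway. Aldoa, the main aldolase, had a ratio of 0.968 (0.922 to 1.02) and Tpi1, which interconverts the trioses, one of 0.960 (0.917 to 1.01). Pgam1, which moves the phosphate of 3-phosphoglycerate, had a ratio of 0.994 (0.947 to 1.04). These 3 enzymes sat within 5% of equal levels. Aldoa is the sum of 2 features that carry this symbol, of which the second held 59 and 87 UMIs. Aldoc, the brain-type aldolase, held 33 and 55 UMIs and a ratio of 1.08 (0.692 to 1.72), too few to place.

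Gapdh (chr6:125161715-125166467), which oxidises glyceraldehyde 3-phosphate and is widely used as a reference gene, stood apart from its neighbours in the pathway. It was at 265 CPM (258 to 272) in the wild-type and 159.8 CPM (156 to 164) in the Usb1-null library, a ratio of 0.603 (0.580 to 0.625) and the lowest of the 32. Gapdh is short, at 4753 bases, and abundant short genes were lower in the Usb1-null library in general. Relative to the median of the 131 genes of like length and level its log2 ratio was -0.28, which placed it above 16.8% of them. Tpi1, shorter still at 3711 bases and in the same class, lay above 90.8% of them. Gapdh was therefore not 1.5-fold lower when set against genes of its own size, while the near-equal Tpi1 stood high among such genes. The part that gene length or RNA quality had in these ratios was not tested.

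Of the remaining lower steps, Pgk1, which makes the first ATP of the payoff phase, was at 138 CPM (133 to 143) in the wild-type and 175 CPM (171 to 179.9) in the Usb1-null library, a ratio of 1.27 (1.21 to 1.33). Pgk1 is X-linked, as are Pdha1 and Pdk3, and the 541 X-linked genes with at least 50 UMIs had a median log2 ratio of 0.02 against 0.34 for Pgk1. Pkm, which encodes the pyruvate kinase of most tissues, was the second most abundant member, at 415 CPM (406 to 423) and 465 CPM (457 to 472), a ratio of 1.12 (1.09 to 1.15). Eno1, the widespread enolase, was on the other side, with a ratio of 0.830 (0.800 to 0.861). Its reads could be shared with the near-identical copy Eno1b, which held 59 and 120 UMIs. Eno2, the neuronal enolase, passed the 1.5-fold mark with 37 and 88 UMIs only, and its ratio of 1.55 (1.04 to 2.34) had a lower bound near 1.

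Lactate dehydrogenase turns pyruvate into lactate, and the monocarboxylate transporters MCT1 (Slc16a1) and MCT4 (Slc16a3) carry lactate across the membrane. Ldha, the subunit that favours lactate production, was at 282 CPM (275 to 289) in the wild-type and 291 CPM (285 to 296) in the Usb1-null library, a ratio of 1.03 (0.999 to 1.07). Ldhb, the subunit of oxidative tissues, was low in both libraries and had a ratio of 0.695 (0.605 to 0.799). The dehydrogenase step as a whole was thus equal within counting error, at 1.01 (0.980 to 1.04). Slc16a1 was at 134 CPM (129 to 139) and 191 CPM (186 to 196), a ratio of 1.43 (1.37 to 1.49), short of 1.5-fold. Its log2 ratio was 0.74 in cells of 1000 to 3000 UMIs and 0.66 after thinning to 1000 UMIs, both past 1.5-fold. Slc16a3 had a ratio of 1.08 (1.04 to 1.12).

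At the entry of pyruvate into mitochondria the kinases and the enzyme they inhibit did not move together. Pdk1 (chr2:71873224-71903858), a kinase that inactivates pyruvate dehydrogenase, was at 95.3 CPM (91.2 to 99.4) in the wild-type and 144 CPM (140.2 to 148) in the Usb1-null library, a ratio of 1.51 (1.44 to 1.60) that sits at the 1.5-fold mark. Pdk3 had a ratio of 1.06 (0.992 to 1.13) and Pdk2, with 60 and 69 UMIs, one of 0.749 (0.522 to 1.08). Among the kinases the difference thus lay in Pdk1, a known HIF target.

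Pyruvate dehydrogenase E1 is built of alpha subunits from Pdha1 and beta subunits from Pdhb. Pdha1 had a ratio of 1.10 (1.01 to 1.20), whereas Pdhb had one of 0.687 (0.628 to 0.751), so that 2 subunits that assemble into 1 enzyme lay on opposite sides of 1. Pdhb spans 7030 bases and lay above 16.0% of the 606 genes of like length and level. The carrier subunits had intervals that overlap, with a ratio of 1.09 (0.961 to 1.23) for Mpc1 and 0.845 (0.737 to 0.968) for Mpc2. Levels of carrier and E1 summed to a ratio of 0.905 (0.860 to 0.953).

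**Figure D2:**
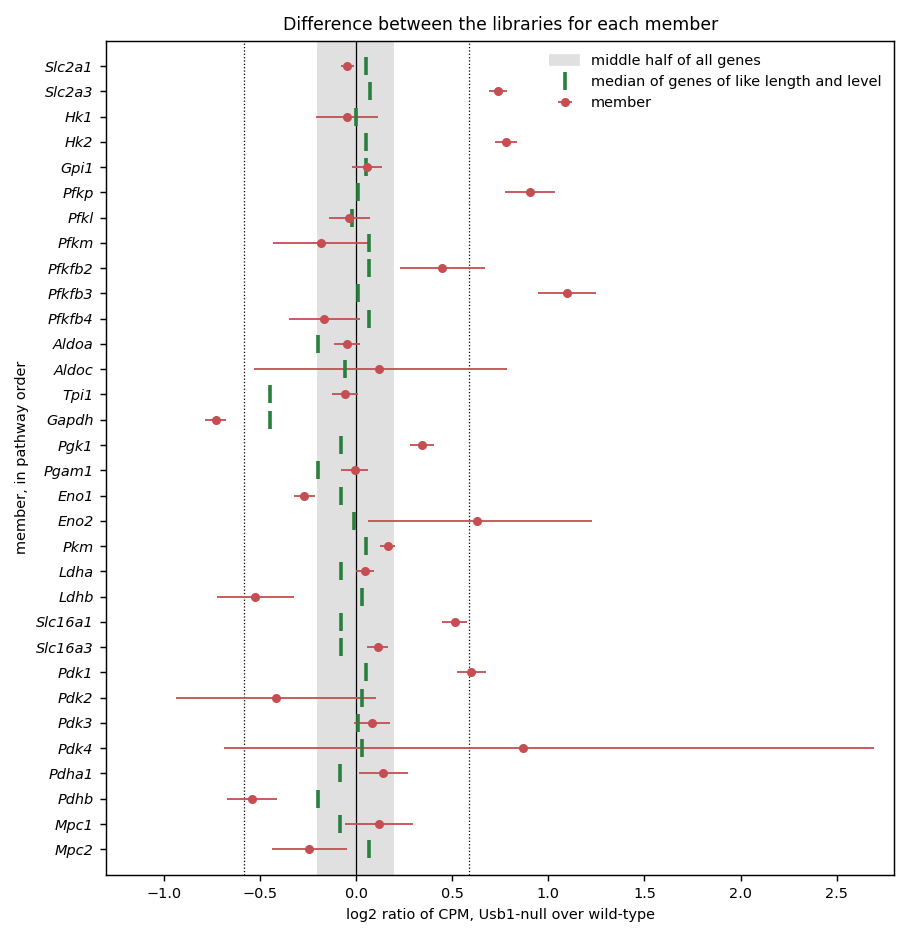
Log2 ratio of CPM (Usb1-null over wild-type) for each member, with 95% intervals for counting error, the middle 50% of all 16752 genes in grey, dotted lines at 1.5-fold, and green ticks at the median of all genes of like length and level. Slc2a3, Hk2, Pfkp, Pfkfb3 and Pdk1 lie far to the right of their ticks, whereas the tick of Gapdh lies at -0.45, between equal levels and its own value.

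When each log2 ratio was set against the median of genes of like length and level, 5 of the 31 members lay at least 1.5-fold above it and none was 1.5-fold below it, against 5.63% and 2.96% of all genes. These 5 were Pfkfb3, Pfkp, Hk2, Slc2a3 and Slc16a1, so that Slc16a1 came in where Pdk1 went out. Eno2 was short of 1.5-fold in the log2 ratio with 1 CPM added, at 0.43 before and 0.44 after the centring. Pfkfb3, Pfkp, Hk2, Slc2a3 and Pdk1 each lay above at least 99.3% of the genes in their class. With this centring 20 of the 31 members lay above 0, with a median of 0.13.

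The 17 enzyme genes from hexokinase to lactate dehydrogenase together were at 2137 CPM in the wild-type and 2216 CPM in the Usb1-null library, a ratio of 1.04 (1.02 to 1.05). Without Gapdh this ratio was 1.10. All 32 members summed to a ratio of 1.10 (1.09 to 1.11), the 4 transporters to 1.19 (1.17 to 1.21) and the 4 pyruvate dehydrogenase kinases to 1.32 (1.27 to 1.37). The steps from triose phosphate isomerase to pyruvate kinase, which include Gapdh, summed to 0.952 (0.938 to 0.967). Of these 7 members 3 were higher and 4 lower, with Gapdh the furthest from equal levels. No sum of these steps without Gapdh was made. The median log2 ratio of the 17 enzymes was -0.01, on the other side of equal levels from their sum.

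Within a step, the share carried by each isozyme does not depend on the library total. In a step of 2 genes the shares are complements, and a share can be lower merely because another isozyme is higher. Pfkfb3 made up 41.6% (38.7 to 44.5) of PFKFB UMIs in the wild-type and 58.7% (56.8 to 60.6) in the Usb1-null library, and Pfkfb4 36.4% (33.6 to 39.3) and 21.5% (19.9 to 23.1). These shifts of 17.1 and -15.0 percentage points were 11.8 and -8.59 points after thinning to 1000 UMIs, which left out cells with fewer UMIs. In cells of at least 1000 genes, without thinning, they were 11.9 and -9.48 points. Pfkfb4 is highest in the erythroid-like cells, of which the Usb1-null library held fewer. Pfkp made up 30.4% (28.4 to 32.4) and 45.9% (44.3 to 47.4) of phosphofructokinase, drawing level with Pfkl at 58.5% (56.3 to 60.6) and 46.2% (44.6 to 47.7). By whole-library UMIs, phosphofructokinase RNA was thus mostly liver-type in the wild-type and evenly liver- and platelet-type in the Usb1-null library. Single clusters differ from this, as Pfkp was highest in cardiomyocyte-like cells, at 304 and 341 CPM. In the median cluster Pfkp was at 15.7 and 40.1 CPM and Pfkl at 57.3 and 55.9 CPM.

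Slc2a3 made up 28.8% (28.1 to 29.5) of the glucose carrier UMIs in the wild-type and 41.0% (40.5 to 41.6) in the Usb1-null library. Hk2 already dominated hexokinase in the wild-type library, at 86.9% (85.8 to 87.9), and made up 92.1% (91.6 to 92.7) in the other. The Hk2 share did not shift in every cluster, at 95.4% and 95.2% in spinal cord progenitor-like and 92.4% and 90.9% in neural crest-like cells, and the Hk1-rich erythroid-like cells numbered 580 and 182. Pdk1 made up 57.7% (56.0 to 59.3) and 66.3% (65.2 to 67.4) of the kinases. Pdha1 and Pdhb encode partner subunits and not isozymes, so their shares describe UMIs and not the make-up of the enzyme. Pdha1 held 45.2% (42.9 to 47.6) and 57.0% (54.9 to 59.0) of their joint UMIs. The smallest shift described here was that of Ldha, at 93.9% (93.3 to 94.5) and 95.8% (95.4 to 96.2) of its step. Slc16a1 and Slc16a3 came to near-equal shares in the Usb1-null library, with Slc16a1 at 42.1% (40.9 to 43.3) in the wild-type and 49.0% (48.1 to 49.9) in the Usb1-null library.

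**Figure D3:**
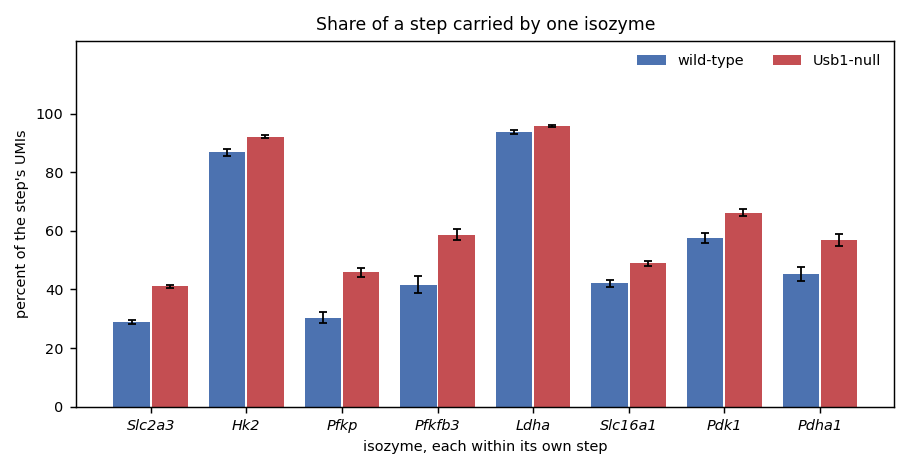
Share of a step's UMIs (percent) carried by 1 gene in the wild-type (blue) and Usb1-null (red) libraries, with exact 95% intervals. The genes are isozymes of a step, except Pdha1, which encodes a partner subunit of Pdhb. In each step shown, a gene with a higher share in the Usb1-null library is drawn, so the direction is set by that choice. The sizes run from 1.91 percentage points for Ldha to 17.1 points for Pfkfb3.

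Whether a difference was held by all kinds of cells was examined in clusters made without the members. Of 22 clusters, 19 had at least 100 cells in each library and were compared, and 15 of these were named from cell type markers. Of the 486 pairs of member and cluster with at least 20 UMIs, 303 (62.3%) had a ratio above 1, against 48.6% of the pairs of all genes. At least 1.5-fold higher were 103 pairs, against 9.98% of all pairs, and at least 1.5-fold lower were 42, against 10.9%.

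Most of the members past or near 1.5-fold in the whole library lay on the same side in nearly every cluster. Slc2a3, Hk2 and Slc16a1 were each above 1 in 19 of 19 clusters. Pfkp was above 1 in 13 of 13 and Pfkfb3 in 17 of 17 clusters with enough UMIs. Pdk1 and Pgk1 were each above 1 in 18 of 19. Median cluster ratios were 2.01 for Slc2a3, 1.62 for Hk2, 2.31 for Pfkp, 2.25 for Pfkfb3, 1.53 for Slc16a1 and 1.49 for Pdk1. Gapdh was below 1 in 19 of 19 clusters, from 0.481 in the primitive erythroid-like to 0.747 in the somite sclerotome-like cluster. Eno2 had enough UMIs in only 1 cluster, and Pdha1, whose whole-library interval lay above 1, was above 1 in 10 of 17. Clusters are not replicates, since their cells come from 1 library per genotype.

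**Figure D4:**
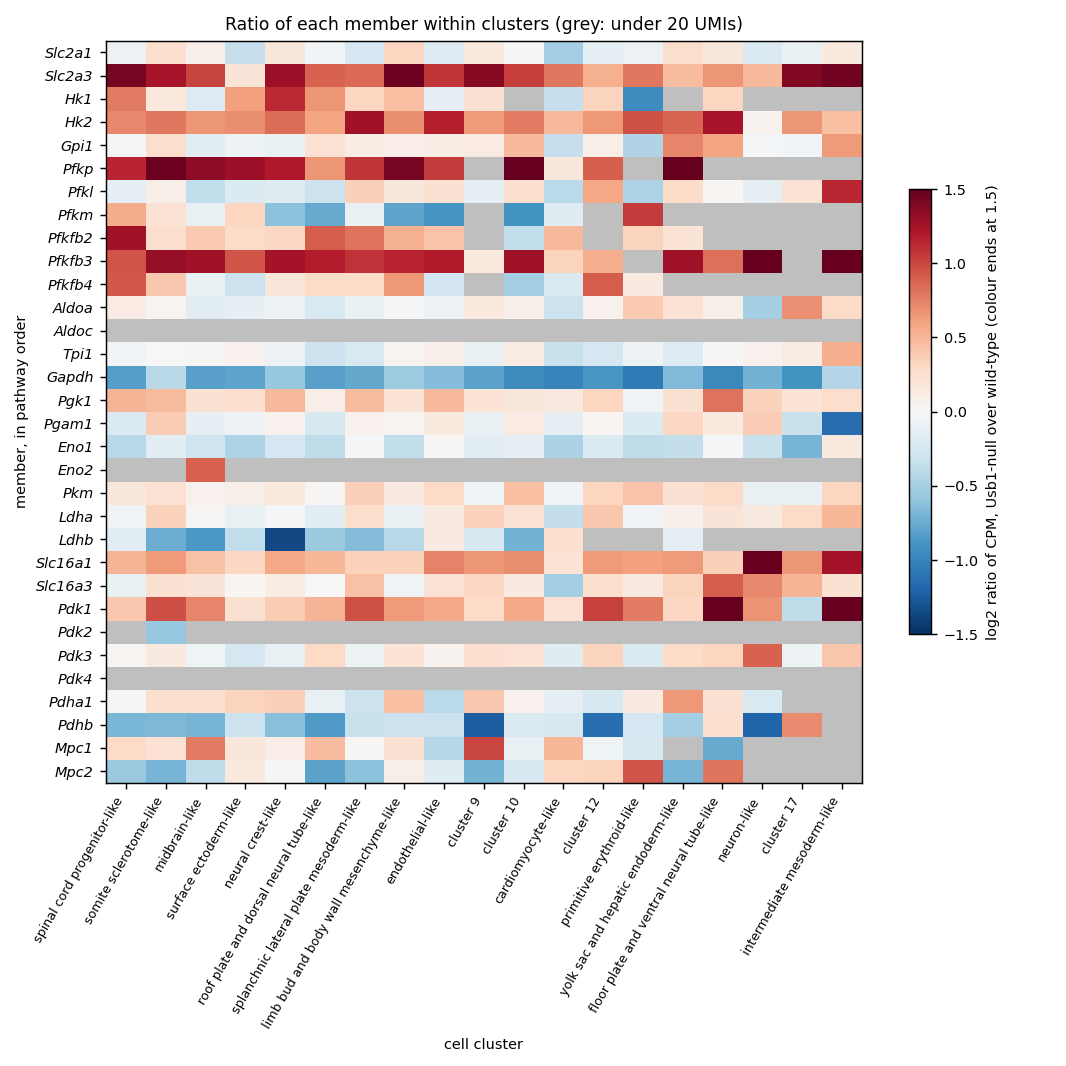
Log2 ratio of CPM (Usb1-null over wild-type) of each member (rows) in the 19 compared clusters (columns), with red above and blue below equal levels and grey where fewer than 20 UMIs were counted. The rows of Slc2a3, Hk2, Pfkp, Pfkfb3 and Slc16a1 are red wherever counted, that of Gapdh is blue in every column, and the cardiomyocyte-like column holds the most blue cells.

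Of the 32 members, 6 (Slc2a3, Hk1, Pfkp, Pfkfb3, Ldha and Pdhb) had their lowest cluster ratio in the cluster with the highest wild-type level, which is also the denominator of the ratio. Pfkm had its highest ratio, 2.07, in its highest cluster, the primitive erythroid-like one, at 19.8 and 41.1 CPM. In no cluster did the interval of Pfkm lie above 1. Slc2a3 was highest in the surface ectoderm-like cluster, at 1156 CPM (1107 to 1205) in the wild-type and 1319 CPM (1277 to 1362) in the Usb1-null library, a ratio of only 1.14 (1.08 to 1.20). In the spinal cord progenitor-like cluster it was at 172 CPM (155 to 191) and 464 CPM (441 to 487), a ratio of 2.69 (2.40 to 3.03). Pfkp was highest in the cardiomyocyte-like cluster, at 304 CPM (267 to 344) and 341 CPM (311 to 374), a ratio of 1.12 (0.959 to 1.32) whose interval includes 1. In the neural crest-like cluster it was at 32 CPM (24.3 to 41.5) and 73.9 CPM (63.6 to 85.3), a ratio of 2.31 (1.71 to 3.16). The range of Slc2a3 levels over the clusters was 32.2-fold in the wild-type and 15.6-fold in the Usb1-null library, so that its lower-expressing clusters lay closer to the highest one in the Usb1-null library.

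Cell classes also differed in which carrier they used, in a similar order in both libraries. Slc2a1 was highest in the spinal cord progenitor-like cluster, at 1485 and 1395 CPM in the wild-type and Usb1-null libraries, and lowest in the unnamed cluster 10, at 158 and 155 CPM. It made up 89.6% and 75% of the glucose carrier UMIs in spinal cord progenitor-like cells but 34.7% and 26.7% in surface ectoderm-like cells. In yolk sac and hepatic endoderm-like cells, a cluster that also had 9 gut and pharyngeal endoderm markers raised, it made up 36.1% and 33.1%. These were the only 2 of the 19 clusters with under 50% Slc2a1 in the wild-type library, and the Slc2a1 share was lower in the Usb1-null library in 19 of 19 clusters. The rank correlation of the 19 cluster levels between the libraries was 0.96 for Slc2a1 and 0.94 for Slc2a3, a description over clusters that share their libraries. It was lower for Pfkfb3, at 0.22, and had a median of 0.65 over the 32 members.

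Primitive erythroid-like cells, the first red cells of the embryo, had a pattern of their own. Pfkfb4 was at 232 and 254.6 CPM there in the wild-type and Usb1-null libraries, whereas its median over the 19 clusters was 12.2 and 15.1 CPM. Pfkfb2 was also highest there, at 45.7 and 57.5 CPM, and so was Mpc1, at 54.9 and 46.5 CPM. Hk1 made up 61.2% and 29.7% of hexokinase UMIs in these cells. Its level was 159 CPM (129.5 to 192) and 82.1 CPM (55.4 to 117), a ratio of 0.518 (0.333 to 0.784), with 104 and 30 UMIs. Eno1, Pkm and Pfkfb3 were at their lowest in these cells in both libraries, with Pfkfb3 at 3 and 2 UMIs.

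The summed level of the glycolytic enzymes lay below 1 in 7 of the 19 clusters, and its interval lay wholly below 1 in cardiomyocyte-like and in roof plate and dorsal neural tube-like cells, the latter at 0.926 (0.885 to 0.968). Cardiomyocyte-like cells had the highest summed level of the glycolytic enzymes among the 19 clusters in the wild-type library, at 3168 CPM, and were at 2771 CPM in the Usb1-null library, a ratio of 0.874 (0.831 to 0.920) and the lowest of the 19. Only 11 of 28 members there were above 1, against 52.9% of all genes counted in that cluster. Slc2a1 had a ratio of 0.703 (0.632 to 0.781), Ldha of 0.779 (0.669 to 0.907) and Slc16a3 of 0.700 (0.583 to 0.843) in these cells. Gpi1, at its highest there, had a ratio of 0.785 (0.632 to 0.977). By contrast, the summed enzymes had a ratio of 1.16 (1.12 to 1.20) in somite sclerotome-like and 1.15 (1.09 to 1.21) in endothelial-like cells. Whether these cluster ratios differ from each other beyond the variation between embryos could not be tested.

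**Figure D5:**
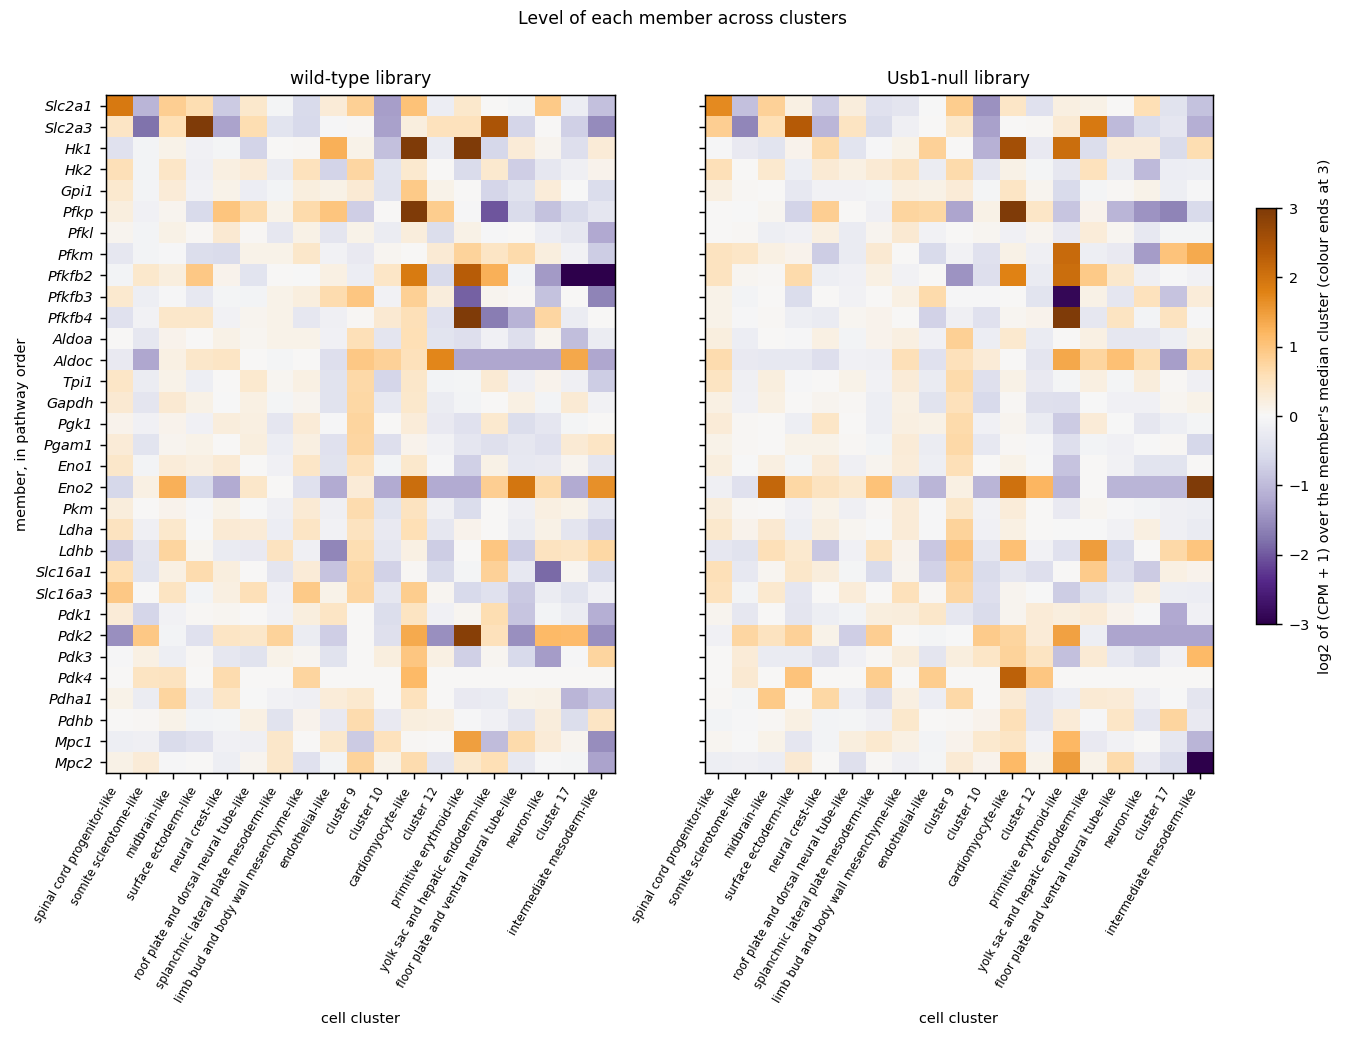
Level of each member (rows) in the 19 compared clusters (columns), as log2 of CPM plus 1 over that member's median cluster, for the wild-type (left) and Usb1-null (right) libraries. In both panels Slc2a1 is raised in spinal cord progenitor-like and Slc2a3 in surface ectoderm-like and in yolk sac and hepatic endoderm-like cells. Pfkp is raised in cardiomyocyte-like and Pfkfb4 in primitive erythroid-like cells, also in both panels. The unnamed cluster 9, with the fewest UMIs per cell, is raised for most lower-pathway enzymes.

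The libraries also differed in composition, with 580 wild-type but 182 Usb1-null primitive erythroid-like cells. The 14 erythroid genes listed for this purpose summed to 912 CPM and 236 CPM, none of them was at 0 in either library, and 12 of the 13 with at least 50 UMIs, all but Alas2, lay 1.5-fold or more below their wild-type level. When the same cluster shares were applied to both libraries, 31 of the 32 member ratios stayed within their counting intervals. The exception was Pfkfb4, whose ratio went from 0.892 to 1.15, that is, from lower to higher in the Usb1-null library. Gapdh, at 0.601, kept its ratio. Pdk1, at 1.5, stayed at the mark, and Eno2 passed below it at 1.47. Hk1 also changed side, from 0.968 to 1.05, within its counting interval.

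Genes of mature liver also differed. Of the 17 mature liver genes listed, 6 were at 0 in the wild-type and none in the Usb1-null library. They summed to 12.6 CPM and 105 CPM, and 16 of the 16 with at least 50 UMIs were 1.5-fold or more higher. The part of this RNA in the values of the members was not tested. Leaving out the erythroid and mature liver-like clusters kept the counts of members past 1.5-fold at 6 higher and 1 lower. The mature liver-like cluster held 46 wild-type and 45 Usb1-null cells and was named from both libraries together. Its markers Mup3, Mup20, Cyp2e1, Cyp3a11 and Apoc3 were at 0 in the wild-type library, so the name does not hold for its wild-type cells by these markers.

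The neighbouring pathways were counted in the same way, from lists of their genes. Ldhd, Taldo1, Ppp1r3c, Pck1, Fbp1, Fos, Fosb, Ier3 and Zfp36 are named here after their values were seen, to make the counts complete. Of 20 genes of the citrate cycle none was at least 1.5-fold higher and 1 was lower, with a median log2 ratio of -0.14, from 0.607 (0.535 to 0.690) for Idh3g to 1.12 (1.03 to 1.22) for Aco1. The 6 other genes of the pyruvate dehydrogenase complex had none past the fold either way, from 0.872 (0.666 to 1.15) for Pdp1 to 1.08 (0.995 to 1.17) for Dld. Of 8 pentose phosphate genes none was higher and 2 were lower, with Pgls at 0.559 (0.517 to 0.603), Taldo1 at 0.636 (0.574 to 0.705) and, at the other end, Rpe at 1.26 (1.15 to 1.37).

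Of 17 glycogen genes 2 were at least 1.5-fold higher and none was lower, with Pgm1, which links glycogen to glucose 6-phosphate, at 1.87 (1.69 to 2.07), Ppp1r3c at 1.60 (1.20 to 2.15) and, at the other end, Gyg at 0.782 (0.708 to 0.864). Among other glycolytic isozymes and regulators, Pklr, the pyruvate kinase of red cells and liver, had a ratio of 0.322 (0.219 to 0.467), and Ldhd, a lactate dehydrogenase for the D form, held 26 and 85 UMIs and a ratio of 2.13 (1.36 to 3.44). Of 5 gluconeogenesis genes 2 were higher and 1 was lower, with G6pc3 at 0.657 (0.590 to 0.731) and Pcx at 1.10 (0.990 to 1.23). The higher ones were Pck1, with 0 and 67 UMIs and at least 14.5-fold higher against a floor of 3 counts per library, and Fbp1, with 4 and 46 UMIs, both known for their role in liver. The median log2 ratio of the 5 was 0.13, although the summed level of all 7 genes listed was lower, at 66.4 CPM and 62.5 CPM. Pklr lies in the direction of the erythroid genes, and Pck1 and Fbp1 in that of the liver genes, and the part of those cells in these values was not tested.

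Apart from the mature liver genes, the list with the greatest share past 1.5-fold upward was that of HIF targets outside glycolysis. Of its 20 genes 10 were 1.5-fold or more higher and none was lower, 19 were above 1, and the median log2 ratio was 0.55. Bnip3, a mitophagy receptor, was at 27.1 CPM in the wild-type and 67.8 CPM in the Usb1-null library, a ratio of 2.5 (2.28 to 2.74). The exception was Mif, a cytokine gene, at 0.706 (0.679 to 0.734). Genes induced by dissociation also differed, with 5 of 13 (Fos, Fosb, Ier3, Dusp1 and Zfp36) at least 1.5-fold higher and none lower. Those with at least 100 UMIs ran from 0.75 (0.693 to 0.812) for Jun to 1.62 (1.35 to 1.94) for Dusp1. The median log2 ratio of the 13 was 0.29, whereas the summed level of all 15 genes listed was lower, at 692 CPM and 586 CPM. Dissociation and genotype cannot be told apart, as each genotype was dissociated as 1 library.

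The targeted gene was low in both libraries. Usb1 held 68 UMIs in the wild-type and 47 in the Usb1-null library, a ratio of 0.450 (0.303 to 0.662). Since the assay is designed to read the 3′ end, outside the deleted exons, this value does not check the label.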

How the data were processed

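Whole E9.5 mouse embryos of 2 genotypes were measured by droplet single-cell RNA-seq (10x 3′ v3.1), with 1 library each. The labels name nuclear RNA, while the protocol describes a suspension of whole cells. The authors deposited raw UMI counts per gene and barcode for each library, made with Cell Ranger 6.1.2 per the file headers and the study's methods. The submitters' processing notes name 2.1.1 and mm10, and whether intronic reads were counted was not given in the sources used here. Cells with 200 to 6000 genes and under 30% mitochondrial counts were kept, after the study's filter. This left 15161 cells of 15162 deposited for the wild-type and 13018 of 13034 for the Usb1-null library, and the wild-type number is above the cell number the study states. Scrublet's algorithm called 1025 and 560 doublets, which were kept here and removed in an alternative.

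Counts were summed per library and cluster with Python 3.11.15, numpy 2.4.6 and scipy 1.17.1. Levels have exact Poisson intervals, ratios exact conditional binomial intervals and shares Clopper-Pearson intervals, all at 95% and covering counting error only. No test was made, as each group is 1 library. A member counted as past the fold at a CPM ratio of at least 1.5 either way with at least 50 UMIs, and log2 ratios used 1 CPM added. All members were described, and a neighbouring list's genes were named when highest or lowest by fold with at least 100 UMIs. Clusters were rebuilt without the members and the neighbouring lists (scanpy 1.11.5, a NumPy version of Harmony, leidenalg 0.10.2). A cluster was named for the type with the most markers raised 2-fold, where these were at least 3 and at least 1 was among the 10 leading genes. A difference from the study's cell classes may come from these rebuilt names. Members were compared in clusters of at least 100 cells per library and with at least 20 UMIs. For depth, cells were thinned to 1000 UMIs, which left out 4973 wild-type and 612 Usb1-null cells. Lengths and coordinates are from GENCODE M21 (GRCm38) and promoters from RefSeq. The scripts were tested on simulated data. The members and lists were chosen with earlier results of these data known. A result of the list of other glycolytic isozymes and regulators is not reported here.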

Additional observations from a re-analysis of the deposited data

Results flagged for a closer look

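For 6 members the ratio (Usb1-null over wild-type) had an interval above 1 in one cluster and below 1 in another, and the differences between clusters were not tested. Slc2a1 was at 1.254 in limb bud and body wall mesenchyme-like and 0.703 in cardiomyocyte-like cells. Hk1 was at 2.18 in neural crest-like and 0.518 in primitive erythroid-like cells. Gpi1 was at 1.66 in yolk sac and hepatic endoderm-like and 0.785 in cardiomyocyte-like cells. Pgam1 was at 1.30 in somite sclerotome-like and 0.454 in intermediate mesoderm-like cells, the latter with only 113 and 119 cells. Ldha was at 1.32 in the unnamed cluster 12 and 0.779 in cardiomyocyte-like cells. Slc16a3 was at 1.88 in floor plate and ventral neural tube-like and 0.700 in cardiomyocyte-like cells. The lower value lay in cardiomyocyte-like cells for Slc2a1, Gpi1, Ldha and Slc16a3.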

How the results depend on the processing

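The summed ratio of the glycolytic enzymes, 1.04, was 1.09 with cells of at least 1000 genes, 1.11 with cells of 1000 to 3000 UMIs, 1.08 after thinning, 1.02 with each cell given equal weight, 1.02 with totals without mitochondrial, ribosomal protein, globin, Xist, Tsix and Y-linked genes, 1.06 with median-of-ratios scaling and 1.10 without Gapdh. The median log2 ratio of the members, 0.06, was 0.17 in cells of 1000 to 3000 UMIs. The single member 1.5-fold lower became 2 after thinning, 2 with equal weight, 4 at a lower fold threshold, 0 at 2-fold and 0 when centred on genes of like length and level. The 6 higher members became 1 at 2-fold, against 3.77% of all genes, and 9 at the lower threshold, against 17.8% (and 16.9% lower), and stayed between 5 and 7 otherwise. Over 13 settings the log2 ratio ran from 0.95 to 1.09 for Pfkfb3, 0.66 to 0.91 for Pfkp, 0.73 to 0.87 for Hk2, 0.66 to 0.77 for Slc2a3, 0.54 to 0.65 for Pdk1, 0.19 to 0.60 for Eno2 and -0.75 to -0.28 for Gapdh, so that none of these 7 changed direction. The causes of these shifts were not tested. Of the member log2 ratios under the alternatives, 365 stayed within their counting interval and 51 moved beyond it. Of the changes in share within a step, 122 stayed and 8 moved. Those of Pfkfb3 and Pfkfb4 moved with deeper cells or equal depths. Those of the carrier subunits Mpc1 and Mpc2 moved after thinning, to 11.9 and -11.9 percentage points. With 4 other clusterings, 61.6% to 63.1% of member and cluster pairs were above 1 and Gapdh was below 1 in every cluster compared. The length and level centring and the sum without Gapdh were chosen after seeing the data. Without a gene filter 7 members were higher and 22.1% of all genes, and at 200 UMIs 5 members and 4.85%. No paired analysis was possible because each genotype is 1 library, and for the same reason no replicate could be left out. Precision is limited by the variation between embryos, which 1 library per genotype does not show, and for Pdk4, Aldoc, Eno2 and Pdk2 also by depth.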
